A study of Mus musculus with 15 samples.

Results

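The dividing cells of the mouse colon were the 676 of 4372 colon cells in which at least 5 of 10 genes of chromosome segregation and cell division (Top2a, Mki67, Nusap1, Prc1, Kif11, Cenpf, Aurkb, Ube2c, Hmmr and Cdk1) had at least 1 unique molecular identifier (UMI, the tag that counts each captured mRNA molecule once). The series holds 18919 single cells from the proximal and distal small intestine and the colon of 5 mice, profiled by Seq-Well, in which cells are captured with barcoded beads in microwells. All mice carried Lgr5-eGFP-IRES-CreERT2, an allele that puts a green reporter and an inducible Cre at the Lgr5 locus, and were 6 months old. In the high fat diet group, 3 mice received 60% of their calories from fat, and in the control group 2 mice received a purified diet with 10%. The time on the diet is not given in the sources used here. The colons of high fat diet mice 1 to 3 gave 64 dividing cells of 549, 26 of 324 and 280 of 1102, and those of control mice 1 and 2 gave 127 of 1495 and 179 of 902. Of the dividing cells, 165 had the deposited stem call, which in every cell equalled at least 1 UMI of Lgr5 or eGFP, and 511 did not. The same rule found 4590 dividing cells in the small intestine.

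In the colon, stem cells at the crypt base and their transit-amplifying daughters divide, and the progeny move up the crypt and become absorptive colonocytes, goblet cells, enteroendocrine cells or tuft cells. Genes for DNA replication are switched on when cells enter S phase, chiefly through E2F transcription factors. Genes for mitosis peak later, and the MuvB complex, together with B-MYB and FOXM1, controls many of them through the cell cycle genes homology region (CHR) and CCAAT boxes in their promoters.

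Because mitosis and replication genes are read through such motifs, stretches of 4 promoters, 2 of each kind, are shown, each the 150 bases before the start of the gene, from RefSeq on GRCm38.p6. Top2a (chr11:99024190-99024339, minus strand) and Cdk1 (chr10:69352913-69353062, minus strand) belong to the rule. Mcm5 (chr8:75109359-75109508, plus strand) and Mcm6 (chr1:128359706-128359855, minus strand) encode subunits of the replicative helicase. Capitals mark the CHR as TTTGAA or its variant TTCGAA, the CCAAT box as CCAAT, and the E2F motif as TTTGGCGC or TTTCGCGC, each on either strand.
Top2a: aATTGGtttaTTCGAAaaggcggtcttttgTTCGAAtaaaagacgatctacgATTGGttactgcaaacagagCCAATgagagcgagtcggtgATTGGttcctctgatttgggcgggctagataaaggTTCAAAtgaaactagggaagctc
Cdk1: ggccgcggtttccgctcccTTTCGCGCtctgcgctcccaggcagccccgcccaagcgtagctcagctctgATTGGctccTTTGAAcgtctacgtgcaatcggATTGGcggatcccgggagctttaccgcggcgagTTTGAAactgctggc
Mcm5: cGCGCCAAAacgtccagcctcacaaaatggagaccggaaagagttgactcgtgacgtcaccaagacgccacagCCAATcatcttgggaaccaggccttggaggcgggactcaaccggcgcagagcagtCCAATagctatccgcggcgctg
Mcm6: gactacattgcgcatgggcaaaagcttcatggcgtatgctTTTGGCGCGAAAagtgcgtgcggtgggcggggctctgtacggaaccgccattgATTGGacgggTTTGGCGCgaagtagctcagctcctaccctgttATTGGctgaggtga
Top2a held 3 CHR motifs and 4 CCAAT boxes, and Cdk1 2 of each with 1 E2F motif. Mcm5 and Mcm6 held 2 CCAAT boxes each, and 1 and 3 E2F motifs, of which 2 in Mcm6 overlap. Over the 250 bases before the start, TTTGAA was present in 6 of 10 windows of the rule genes (60%; 9 genes had an entry), in 22.2% of windows of 34 other mitosis genes and in 13.3% of those of 37 replication genes, against 16.0% of all 32851 windows. A CCAAT box was present in 90%, 72.2% and 60% of these windows, against 33.8% of all, and an E2F motif in 10%, 2.78% and 13.3%, against 0.654% of all. A match describes the letters of these windows, and no match says nothing on whether a factor binds.

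The rule genes themselves describe how the cells were chosen and carry no test. Top2a (chromosome 11, 98992943 to 99024189 in mm10), the topoisomerase that untangles sister chromatids, had 913, 1631 and 1007 counts per 1000000 UMIs (CPM) in dividing cells of high fat diet mice 1 to 3 and 884 and 1293 CPM in those of control mice 1 and 2, against 52.3, 97.2, 51.3, 77.0 and 45.3 CPM in the other colon cells of the same mice. Nusap1 (chromosome 2, 119618298 to 119651244), which bundles spindle microtubules, had 115 to 222 CPM in dividing cells and 1.27 to 2.61 CPM in other cells. Mki67, which coats mitotic chromosomes, had a UMI in 99.9% of dividing cells but also in 48.5% of other cells, at 1838 to 2965 CPM against 140 to 417 CPM. Nusap1 had a UMI in 56.2% of dividing and 1.62% of other cells, Prc1, which organises the central spindle, in 65.5% and 4.79%, and Aurkb, the kinase of the chromosomal passenger complex, in 49.4% and 1.49%. Among the 325 other cells of immune or stromal profile, which are shallower, Mki67 had a UMI in 10.8% and Top2a in 7.08%. Mki67 thus marked many cells outside the rule, and Nusap1, Prc1 and Aurkb few. All 10 rule genes were found in 188 of the dividing cells and exactly 5 in 162, while 222 colon cells had 4 and were left outside. Cells with 5 and with 4 rule genes had 2630 and 1662 summed CPM over other mitosis genes, and 22.8% and 21.6% of them had the stem call.

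Dividing cells were deeper than their neighbours, which raises the chance of seeing 5 genes. The median dividing cell had 20769.5, 15195 and 23919 UMIs in high fat diet mice and 7022 and 27220 in control mice, against 4389, 2616, 18160, 4738 and 16183 UMIs in other colon cells of these mice. Counts were summed per mouse, giving 395554 to 7149659 UMIs for the dividing cells of a mouse. The number of mice, and the 26 cells of high fat diet mouse 2, limit the precision, and in such sums fewer cells of a type and less RNA per cell cannot be told apart. Colon libraries shared 1 barcode, which no dividing cell carried. Scrublet, a doublet caller run per library, marked 3 of the dividing cells and 33 colon cells (0.755%). Of the dividing cells, 664 (98.2%) had at least 2 epithelial markers and 12 (1.78%) had an immune or stromal profile, against 325 of 3696 other cells (8.79%). These immune or stromal cells were unevenly spread, at 39.2% and 30.9% of other cells in high fat diet mice 1 and 2 and 0.122% to 2.27% in the other 3 mice.

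Colon cells were next ordered by how many rule genes they showed, to see how other programmes changed towards and beyond the rule. Across the steps 0, 1 to 2, 3 to 4, 5 to 6, 7 to 8 and 9 to 10 rule genes, the summed level of 41 other mitosis genes averaged 453, 648, 1639, 4097, 5738 and 9415 CPM over the 5 mice. The 47 DNA replication genes averaged 1207, 2078, 3452, 4660, 5186 and 5766 CPM. Each mouse had higher levels of the replication genes at 3 to 4 than at 0 rule genes, and at 9 to 10 they ranged between 3991 CPM in high fat diet mouse 2 and 8675 CPM in high fat diet mouse 1. Ribosome biogenesis genes averaged 1965 CPM at 0 rule genes and 3250 CPM at 3 to 4. At the steps of the dividing cells they averaged 3724, 4085 and 3711 CPM, with single mice between 2834 and 4708 CPM. Intestinal stem cell genes averaged 2734 CPM at 0 rule genes (1592 to 4754 CPM between mice) and 3708 to 3899 CPM at every later step. Control mouse 1 went the other way, with 4754, 4365 and 3848 CPM at 0, 1 to 2 and 3 to 4 rule genes. Absorptive colonocyte genes averaged 11407, 7675, 5511, 4088, 3515 and 3237 CPM, but these averages were carried by high fat diet mouse 3 and control mouse 2, which had 17897 and 28737 CPM at 0 rule genes and 4178 and 4237 CPM at 9 to 10. High fat diet mouse 1 had 1703 and 2417 CPM at these steps, high fat diet mouse 2 5381 and 3051 CPM, and control mouse 1 3318 and 2304 CPM. Median depth was higher at 9 to 10 than at 0 rule genes in each mouse, for example 26867 and 14241.5 UMIs in high fat diet mouse 3 and 7532 and 4038 UMIs in control mouse 1, and its part in the order was not tested. The steps also hold cells of immune or stromal profile. B and plasma cell genes averaged 1952 CPM at 0 and 136 CPM at 3 to 4 rule genes. T cell genes averaged 864 and 36.8 CPM at these steps. Both lists fell between these 2 steps in each mouse, and on average were higher again at later steps. The part of this mix of cells in the order was not tested either.

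**Figure D1:**
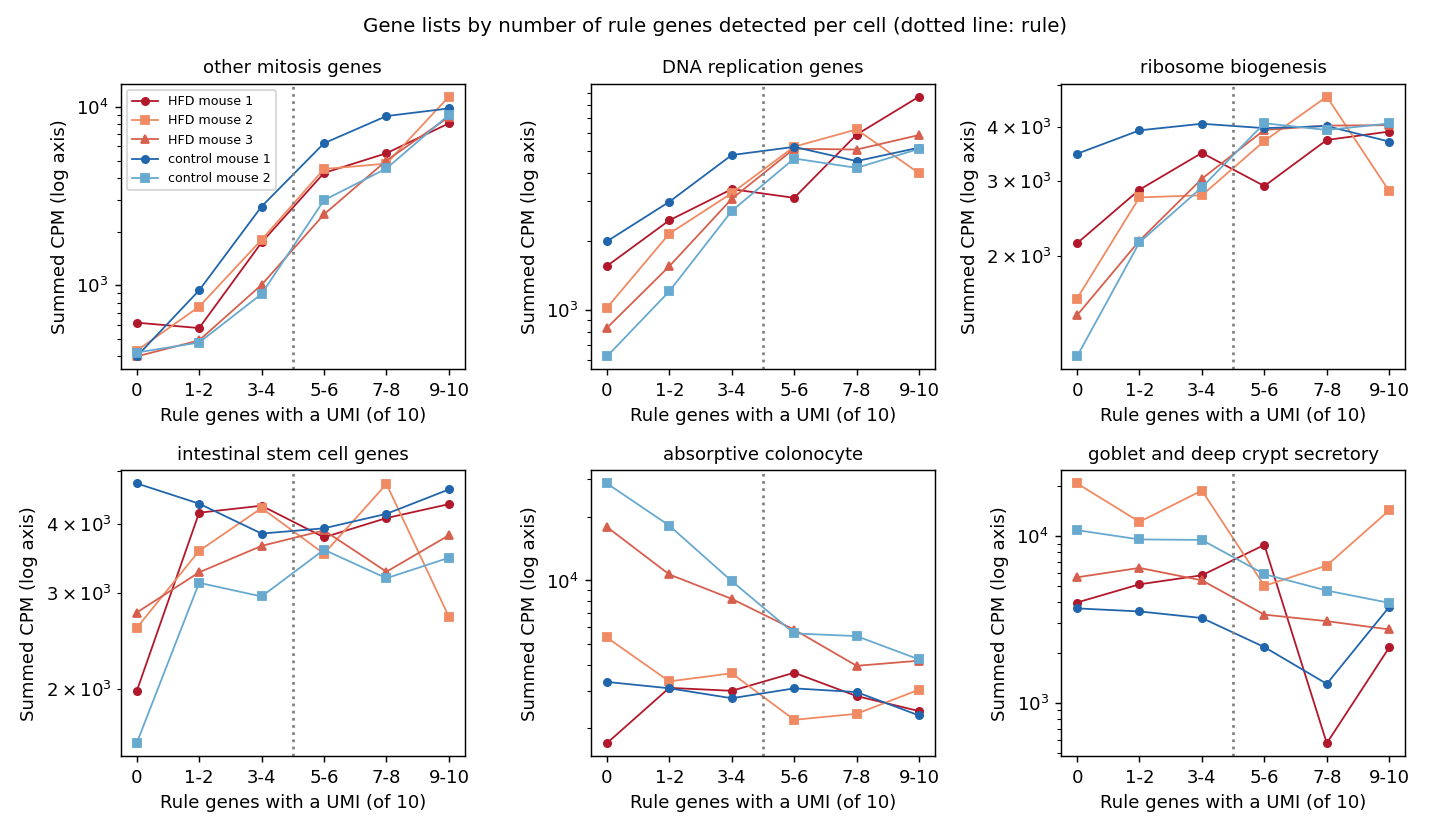
Summed level (CPM, log axis) of 6 gene lists in colon cells grouped by the number of rule genes with a UMI, with 1 line per mouse; cells right of the dotted line are the dividing cells. Other mitosis genes climb from 1 to 2 rule genes upwards in each of the 5 mice, and replication genes are higher at 3 to 4 than at 0 rule genes in each mouse.

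Against the other colon cells, genes of mitosis and of DNA replication that the rule did not use were higher in dividing cells, and genes of differentiated cells were lower. Because the cells were chosen by counts from the same cells, these differences are given as a description. Of 11434 genes, edgeR's quasi-likelihood test called 24.3% (13.3% higher, 11% lower), from which nothing is read about single lists, and 20.6% of genes were higher and 10.9% lower in all 5 mice. All 41 other mitosis genes were higher in all 5 mice, with a median log2 fold change of 3.68, against -0.02 over all genes. Kif23, a motor of the midzone and midbody, had 253, 222 and 224 CPM in dividing cells of high fat diet mice and 304 and 249 CPM in those of control mice, against 16.5 to 31.6 CPM in other cells (log2 fold change 3.48 ± 0.11, SE, 5 mice). Anln (chromosome 9, 22332012 to 22389188), the anillin of the cleavage furrow, had 128 to 177 CPM in dividing and 3.44 to 7.54 CPM in other cells (4.90 ± 0.17), and the condensin subunit Ncapg 112 to 214 and 5.20 to 14.4 CPM (4.21 ± 0.12). No mouse's dividing cells overlapped with any mouse's other cells in these 3 genes.

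Of 47 replication genes, 45 were higher in all 5 mice and none lower, with a median of 1.32. Clspn, which relays the replication checkpoint, had 91.4, 101 and 125 CPM in dividing cells of high fat diet mice and 108 and 83.9 CPM in those of control mice, against 9.78 to 15.4 CPM in other cells (3.06 ± 0.12). Mcm10, which helps to fire origins, had 93.6 to 149 CPM in dividing and 17.7 to 35.8 CPM in other cells (2.07 ± 0.13). Of the histone and chromatin genes, 24 of 25 were higher in all mice, led by the linker histone gene Hist1h1b (4.96 ± 0.21), whose relatives may share reads with it. The nucleotide supply followed in part, with 16 of 28 genes higher in all mice and a median of 0.63. Rrm2, the S-phase subunit of ribonucleotide reductase, had 70.3 to 116 CPM in dividing and 8.77 to 14.0 CPM in other cells (3.09 ± 0.17), and Tyms, thymidylate synthase, 106 to 187 and 29.5 to 63.5 CPM (1.75 ± 0.12). Ribosome biogenesis genes differed less, with 10 of 22 higher in all mice, none lower and a median of 0.46.

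Regulators of the cycle were found in both directions. Of the 19 G1 cyclin, E2F and Myc genes, 14 were higher in all mice and none lower (median 0.69). Foxm1 (chromosome 6, 128362967 to 128376146), which encodes a factor that drives late cell cycle genes, had 57.2 to 118 CPM in dividing and 2.06 to 11.1 CPM in other cells (3.82 ± 0.24), and E2f8, an atypical E2F that represses S-phase genes, 78.4 to 120 and 11.5 to 19.1 CPM (2.74 ± 0.14). Among 18 cell cycle arrest genes, 5 were lower in all mice and 3 higher. The CDK4/6 inhibitor genes Cdkn2c (2.49 ± 0.17) and Cdkn2d (1.27 ± 0.20) were among the higher ones, at 31.1 to 45.5 and 20.1 to 37.9 CPM in dividing cells, against 3.82 to 8.46 and 5.08 to 18.5 CPM in other cells. Mxd4, a MYC antagonist, had 58.0, 60.7 and 74.7 CPM in dividing cells of high fat diet mice and 49.9 and 57.8 CPM in those of control mice, against 115 to 177 CPM in other cells (-1.30 ± 0.10). Members known to brake the cycle were thus found on both sides.

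**Figure D2:**
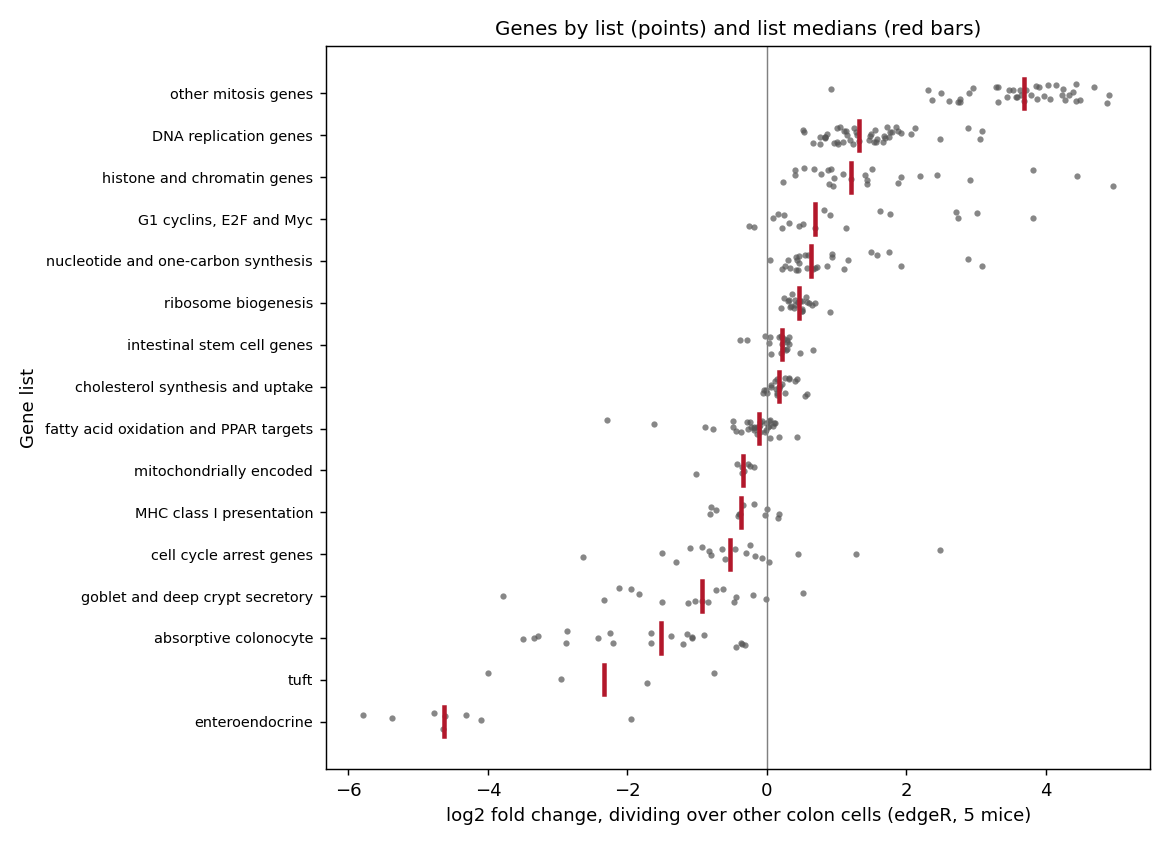
Log2 fold change of dividing over other colon cells for each tested gene (grey points) of 16 lists, with the list median (red bar). Medians run between 3.68 for other mitosis genes and -4.63 for enteroendocrine genes.

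Lists of differentiated cells had medians below 0 in dividing cells, but many of their genes were not lower in every mouse. The 14 enteroendocrine genes summed to 13.3, 2.53 and 197 CPM in dividing cells of high fat diet mice and 5.09 and 30.1 CPM in those of control mice, against 4.45, 437, 2503, 530 and 1727 CPM in other cells, so that high fat diet mouse 1 was the exception. The median over the 8 tested genes was -4.63, and 1 of the 8 was lower in all mice, a share near the 10.9% of all genes. Gcg, the glucagon and GLP-1 precursor, had 0, 0 and 13.7 CPM in dividing cells of high fat diet mice and 2.04 and 0.814 CPM in those of control mice, against 0, 35.1, 692, 67.9 and 62.3 CPM in other cells (-5.79 ± 0.19). After every cell was thinned to 2000 UMIs, 1 of 671 dividing cells (0.149%) showed at least 3 enteroendocrine markers, against 2.503% of other epithelial cells. Of 17 goblet and deep crypt secretory genes, 9 were lower in all mice and 1 higher (median -0.93), with Zg16, a goblet granule lectin, at 0 to 105 CPM in dividing and 7.13 to 726 CPM in other cells (-3.79 ± 0.37). Of the thinned dividing cells, 24.9% (167 of 671) showed at least 3 goblet markers, against 28.2% of other epithelial cells and 0 of 244 cells of immune or stromal profile (a count of 0 allows up to 1.23%), with median depths before thinning of 20102, 9327 and 3133 UMIs. Absorptive genes had a median of -1.52, and 5 of 20 were lower in all mice and none higher. Of the thinned dividing cells, 67.1% (450 of 671) showed at least 3 absorptive markers, against 70.7% of other epithelial cells and 4.10% of those of immune or stromal profile, and in high fat diet mouse 1 the shares were 52.4% and 51.1%. Sepp1, which encodes the plasma selenium carrier, had 5.34, 17.7 and 39.2 CPM in dividing cells of high fat diet mice and 7.13 and 74.3 CPM in those of control mice, against 23.6 to 563 CPM in other cells (-2.72 ± 0.15). The levels of this gene spread widely between mice in both populations, so the order holds within a mouse rather than across mice.

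Stem cell genes differed little between dividing and other cells. Of 21, 7 were higher in all 5 mice and none lower, with a median of 0.22. Smoc2 (chromosome 17, 14279506 to 14404790), a secreted protein of the stem cell signature, had 218, 137 and 115 CPM in dividing cells of high fat diet mice and 170 and 152 CPM in those of control mice, against 113, 86.8, 80.7, 151 and 61.9 CPM in other cells (0.66 ± 0.14). The share of cells with the stem call depended on depth. With all UMIs it averaged 24.6% ± 5.005 in dividing and 12.7% ± 4.41 in other cells (SD, n = 5 mice), higher in 5 of 5 mice, with an exact sign-flip permutation p of 0.062, the smallest that 5 mice allow (two-sided). With every cell thinned to 2000 UMIs it was 7.94%, 0% and 3.93% in dividing cells of high fat diet mice and 6.30% and 3.91% in those of control mice, against 3.76%, 5.21%, 5.23%, 10.6% and 1.80% in other cells. The 0% stands on 22 cells, which allows a share of up to 13.6%. The mean difference was then -0.91 percentage points, with 2 of 5 mice higher (exact sign-flip permutation test, two-sided, p = 0.625). With cells thinned to 3000 UMIs it was 1.17 percentage points, with 4 of 5 mice higher (p = 0.25 by the same exact test). The direction at equal depth thus changed with the number of UMIs kept, and with 5 mice the test could not have passed 0.05.

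Metabolic lists had small median fold changes. Some still had more genes with 1 sign in all mice than the 20.6% higher and 10.9% lower of all genes. Of 35 genes of fatty acid oxidation and PPAR targets, 3 were higher and 7 lower in all mice (median -0.11). Slc25a20, the mitochondrial carnitine-acylcarnitine carrier, had 24.7, 10.1 and 36.1 CPM in dividing cells of high fat diet mice and 10.2 and 22.8 CPM in those of control mice, against 34.3, 27.1, 101, 25.1 and 117 CPM in other cells (-1.62 ± 0.26). Of 23 cholesterol genes, 9 were higher in all mice and none lower (median 0.17), with Insig1, which restrains sterol synthesis, at 60.7 to 111 CPM in dividing and 42.9 to 84.0 CPM in other cells (0.57 ± 0.14). Of the 8 mitochondrially encoded genes, 5 were lower in all mice and none higher (median -0.34). Of 12 genes of MHC class I presentation, 5 were lower and 1 higher in all mice (median -0.37). The other cells include those of immune or stromal profile, whose part in these values was not tested. Without them the test called 3009 of 11291 genes in place of 2777 of 11434, and 2537 were called both ways.

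Among dividing cells, those with the stem call had higher levels of other stem cell genes and lower levels of goblet, absorptive and cholesterol genes than those without it. This comparison used the 4 mice with at least 10 cells of each kind, and high fat diet mouse 2, with 5 stem-called dividing cells, was left out. The call rests on Lgr5 and eGFP, which were not tested, and a cell without it may still express Lgr5 below detection. The median depth was 22330, 23476, 7142.5 and 30516 UMIs in stem-called, against 20195, 24014, 6851 and 24844.5 UMIs in other dividing cells of high fat diet mice 1 and 3 and control mice 1 and 2. edgeR's quasi-likelihood test with the mouse as a block called 16.9% of 9296 genes at a Benjamini-Hochberg adjusted p under 0.05, 7.61% higher and 9.25% lower in stem-called cells.

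Of 20 tested stem cell genes, 16 were higher and none lower, with a median log2 fold change of 1.01, against 0.01 over all genes. Axin2 (chromosome 11, 108920349 to 108950783), a WNT target and feedback inhibitor, had 291, 253, 394 and 198 CPM in stem-called dividing cells, against 104, 89.1, 179 and 72.2 CPM in other dividing cells of the same mice (1.39 ± 0.10). Smoc2 had 361, 284, 298 and 373 CPM, against 140, 61.5, 124 and 76.0 CPM (1.88 ± 0.14). In both genes every mouse's stem-called cells were above every mouse's other dividing cells. Sox4, a transcription factor of progenitors, had 336 to 528 CPM in stem-called and 135 to 216 CPM in other dividing cells (1.25 ± 0.09), and Ephb3, a receptor that positions cells along the crypt, 123 to 298 and 56.0 to 135 CPM (1.25 ± 0.11). The number of stem genes called was 14 to 16 whichever mouse was left out.

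The leading higher genes also held Clca4, a family member of the calcium-activated chloride channel regulators, at 2609, 3396, 3377 and 2717 CPM in stem-called and 1245, 1273, 1719 and 1002 CPM in other dividing cells (1.21 ± 0.08). Rgcc, a regulator of the cell cycle, had 58.2 to 138 and 12.2 to 34.7 CPM (2.23 ± 0.16), and Ifitm3, an interferon-induced membrane protein, 478 to 786 and 168 to 391 CPM (1.27 ± 0.09). Of 18 G1 regulators, 5 were higher and 1 lower. Myc had 58.3, 69.8, 68.8 and 107 CPM in stem-called and 32.0, 29.3, 30.5 and 49.8 CPM in other dividing cells (1.11 ± 0.14), and Cdk6, a G1 kinase, 73.2 to 99.4 and 30.6 to 61.1 CPM (1.05 ± 0.15). Of 16 tested cell cycle arrest genes, 1 was higher, Btg2 (0.46 ± 0.13), and 4 were lower. Klf4, a factor of cell cycle exit and goblet differentiation, was among the lower ones, at 71.4 to 170 and 143 to 295 CPM (-1.07 ± 0.14). Other mitosis genes mostly did not pass the test (3 of 40 higher, none lower, median 0.08, and 0 higher when either control mouse 2 or high fat diet mouse 3 was left out). For replication genes 13 of 47 were higher and none lower (median 0.29), and for ribosome biogenesis 9 of 22 (median 0.31). These 2 counts were 2 and 3 when control mouse 2 was left out, and also when high fat diet mouse 3 was.

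**Figure D3:**
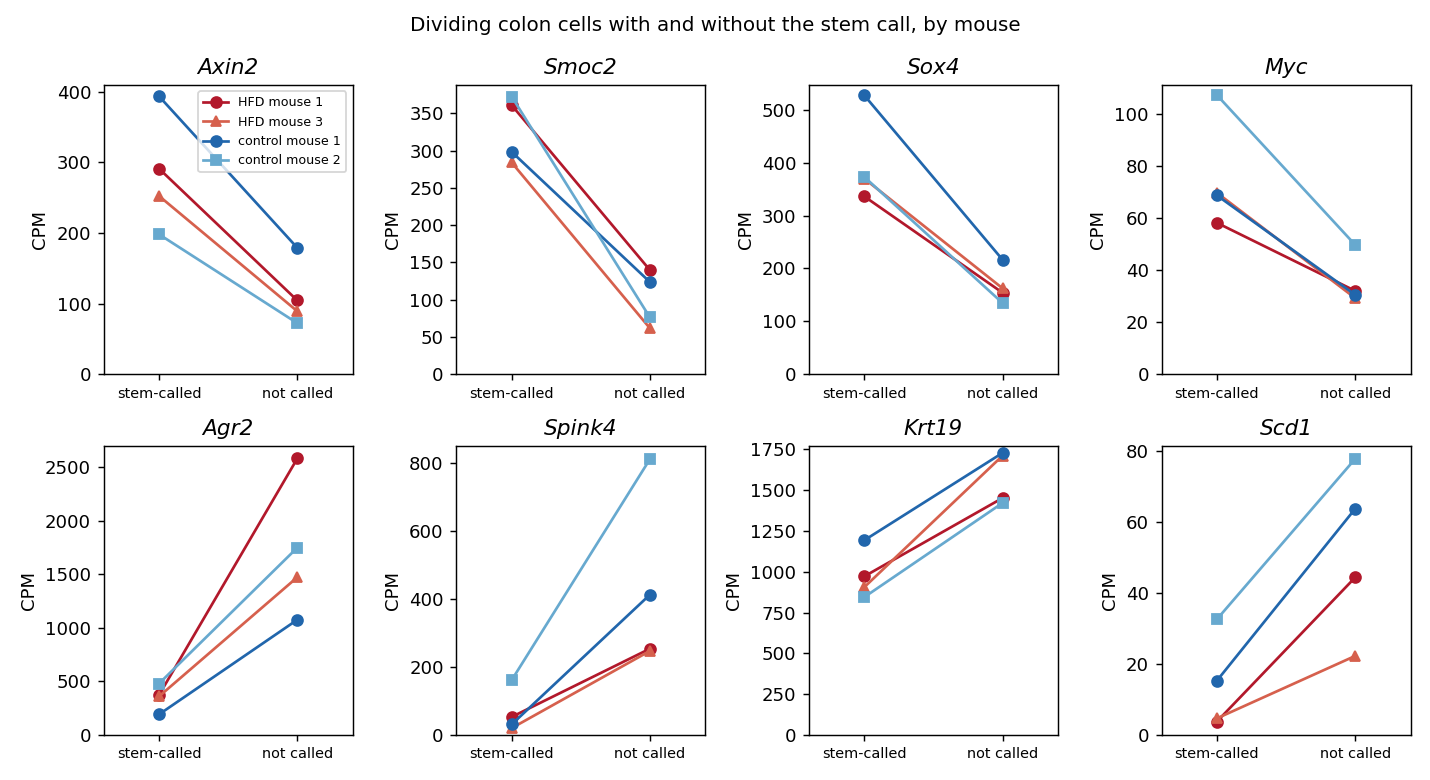
Levels (CPM) of 8 genes in stem-called (left) and other (right) dividing colon cells, with 1 line per mouse for the 4 mice compared. Axin2, Smoc2, Sox4 and Myc are higher and Agr2, Spink4, Krt19 and Scd1 lower in the stem-called cells of each mouse.

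Goblet genes differed in the other direction, with 12 of 14 lower and 1 higher in stem-called dividing cells (median -2.11). Agr2 (chromosome 12, 35992907 to 36004087), the disulfide isomerase that mucin folding needs, had 372, 359, 191 and 479 CPM in stem-called and 2582, 1473, 1075 and 1749 CPM in other dividing cells (-2.27 ± 0.11). Spink4, a goblet peptidase inhibitor, had 52.6, 19.8, 30.6 and 161 CPM, against 253, 247, 412 and 811 CPM (-2.79 ± 0.17), and Fcgbp, a mucus protein, 33.8 to 115 against 229 to 409 CPM (-2.20 ± 0.18). Leaving out any mouse gave 11 to 14 goblet genes lower. Of 15 absorptive genes 10 were lower and none higher (median -0.80), among them Guca2a, the precursor of guanylin, at 30.1 to 83.6 and 127 to 182 CPM (-1.62 ± 0.18). The keratin gene Krt19 was lower too, at 844 to 1193 and 1422 to 1729 CPM (-0.73 ± 0.07). Lgals3, which encodes galectin-3 and was the called gene of smallest p, had 75.2, 142, 95.6 and 143 CPM in stem-called and 321, 637, 372 and 535 CPM in other dividing cells (-2.06 ± 0.10).

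Most cholesterol genes were lower in stem-called dividing cells. Of 22 cholesterol genes, 16 were lower and none higher (median -0.51). Hmgcs1, the cytosolic synthase that feeds the pathway, had 145, 265, 157 and 272 CPM in stem-called and 267, 483, 321 and 324 CPM in other dividing cells (-0.71 ± 0.11). Without high fat diet mouse 3 the count was 9, and without control mouse 2 it was 14. Of 15 lipogenesis genes 3 were higher and 4 lower (2 and 2 with control mouse 2 left out, and 1 and 3 with high fat diet mouse 3 left out), with the desaturase gene Scd1 at 3.76, 4.66, 15.3 and 32.6 CPM in stem-called and 44.5, 22.3, 63.8 and 77.9 CPM in other dividing cells (-1.79 ± 0.25). Among fatty acid oxidation genes and PPAR targets, 1 of 32 was higher and 9 lower. The higher one, Acot1, which frees fatty acids from coenzyme A, had 54.5, 36.7, 22.9 and 24.7 CPM in stem-called and 27.9, 11.05, 15.3 and 9.02 CPM in other dividing cells (1.33 ± 0.23), and a close relative, Acot2, may share reads with it. Leaving out control mouse 2 or high fat diet mouse 3 reduced the 9 lower calls to 1 and 2.

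Markers of other cell types and of tissue handling differed between the 2 kinds as well. The 4 tested B and plasma cell genes were all lower in stem-called cells. Of these, Ms4a1 had 0 to 0.582 CPM in stem-called cells, and Igj had 0 CPM in those of control mice 1 and 2. Such genes passed the filter on low counts mainly through other dividing cells, so nothing is read from the count of 4. The list's 9 genes summed to 3.18 to 73.3 CPM in stem-called and 64.5 to 1030 CPM in other dividing cells of the 4 mice. With the dividing cells of immune or stromal profile removed, 1570 genes were called in place of 1567, Igkc still differed by -3.41 and the stem and goblet counts were 16 higher and 12 lower, as before. Of 18 dissociation stress genes, 8 were higher (4 without control mouse 2) and 1 lower in stem-called cells, at 2359 to 12275 summed CPM against 1957 to 7990 CPM. Their part in the other differences was not tested.

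By diet, the dividing cells made up 11.7% (95% Wilson interval 9.24 to 14.6), 8.02% (5.53 to 11.5) and 25.4% (22.9 to 28.1) of the colon cells of high fat diet mice, against 8.49% (7.19 to 10.0) and 19.8% (17.4 to 22.6) in control mice. The intervals cover counting error only. The means were 15.03% ± 9.17 (SD, n = 3) on the high fat diet and 14.2% ± 8.03 (SD, n = 2) on the control diet, a difference of 0.86 percentage points (exact permutation test, two-sided, p = 1, where 0.1 is the smallest p possible). The high values belonged to the deepest library of each diet. After 2000 UMIs had been drawn from each cell, the high fat diet mice had shares of 4.09%, 5.14% and 6.53%, against 2.92% and 8.54% for the control mice, and the groups again overlapped (difference -0.47 percentage points, exact permutation p = 0.9). Thinning left out 60, 110 and 0 cells of the high fat diet mice and 22 and 0 of the control mice. With immune and stromal cells out of the denominator the difference was 3.68 percentage points (exact permutation p = 0.7).

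**Figure D4:**
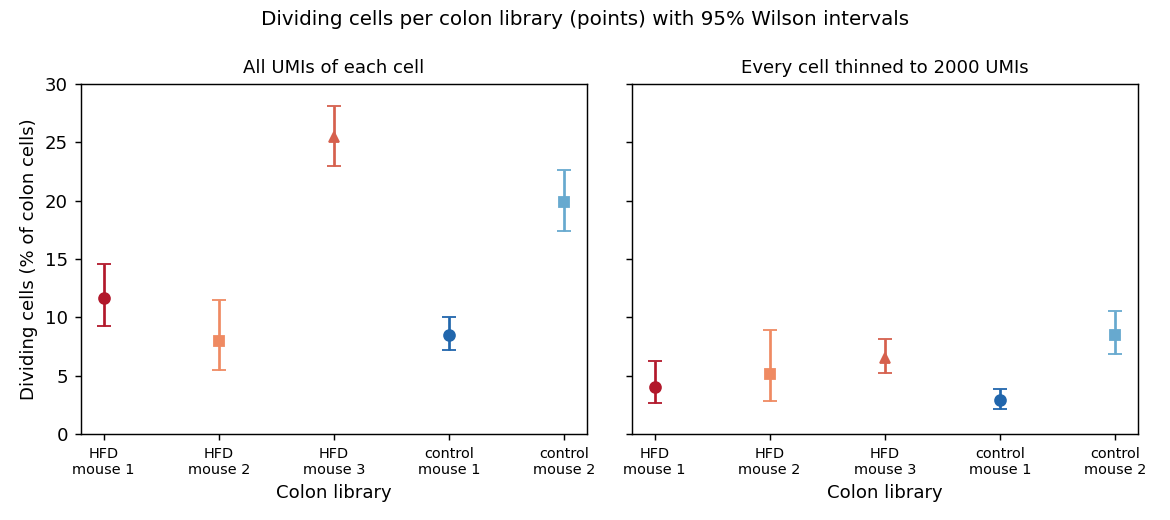
Share of dividing cells among colon cells of each library (points, with 95% Wilson intervals), with all UMIs (left) and after thinning every cell to 2000 UMIs (right). The 3 high fat diet and 2 control libraries overlap in both panels.

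Within the dividing cells, no gene passed the test for diet. edgeR's quasi-likelihood test called 0 of 12444 genes (0%). Before adjustment, 312 had a p under 0.05. DESeq2 and limma voom called 0 as well, with 221 and 304 before adjustment. In 14% of all genes, high fat diet mice lay on 1 side of control mice. The members of lists are therefore described by their values, none of which passed the test. Of 47 replication genes, 42 had a positive fold change (median 0.20) and 7 did not overlap, a share near that of all genes. Of 41 other mitosis genes, 12 had a positive fold change (median -0.11) and 1 did not overlap. Rbl1 (chromosome 2, 157145893 to 157204534), the pocket protein p107, had 113, 106 and 117 CPM in dividing cells of high fat diet mice, against 77.4 and 77.1 CPM in those of control mice (0.56 ± 0.18, adjusted p = 1). Shmt2, the mitochondrial serine hydroxymethyltransferase, had 76.0, 65.7 and 58.9 CPM on the high fat diet, against 42.8 and 39.5 CPM on the control diet (0.71 ± 0.20, adjusted p = 1). The diets did not overlap in either gene.

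Fatty acid genes are of interest because the diet supplies fat. Cpt1a (chromosome 19, 3322334 to 3385733), which admits long-chain fatty acids to mitochondria, had 323, 243 and 271 CPM in dividing cells of high fat diet mice, against 224 and 138 CPM in those of control mice (0.67 ± 0.30, adjusted p = 1). The groups did not overlap, but high fat diet mouse 2 and control mouse 1 were close. Acadl, a long-chain acyl-CoA dehydrogenase, had 148, 147 and 155 CPM, against 86.5 and 139 CPM (0.40 ± 0.20, adjusted p = 1). Of 40 fatty acid oxidation genes and PPAR targets, 23 had a positive fold change and 3 did not overlap (median 0.07, against 0.01 over all genes). Creb3l3, a factor of fasting metabolism, was nearly absent, at 0, 0 and 0.420 CPM on the high fat diet, against 0 and 0.204 CPM on the control diet. Of 15 lipogenesis genes, 7 had a positive fold change (median -0.05) and 2 did not overlap, again a share near that of all genes. These were the desaturase genes Scd1 and Scd2, both with lower values on the high fat diet. Scd2 (chromosome 19, 44293674 to 44306864) had 655, 617 and 857 CPM in dividing cells of high fat diet mice, against 1196 and 1283 CPM in those of control mice (-0.78 ± 0.37, adjusted p = 1). Scd1 had 30.01, 2.53 and 18.0 CPM, against 50.9 and 66.3 CPM (-1.61 ± 0.65, adjusted p = 1).

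**Figure D5:**
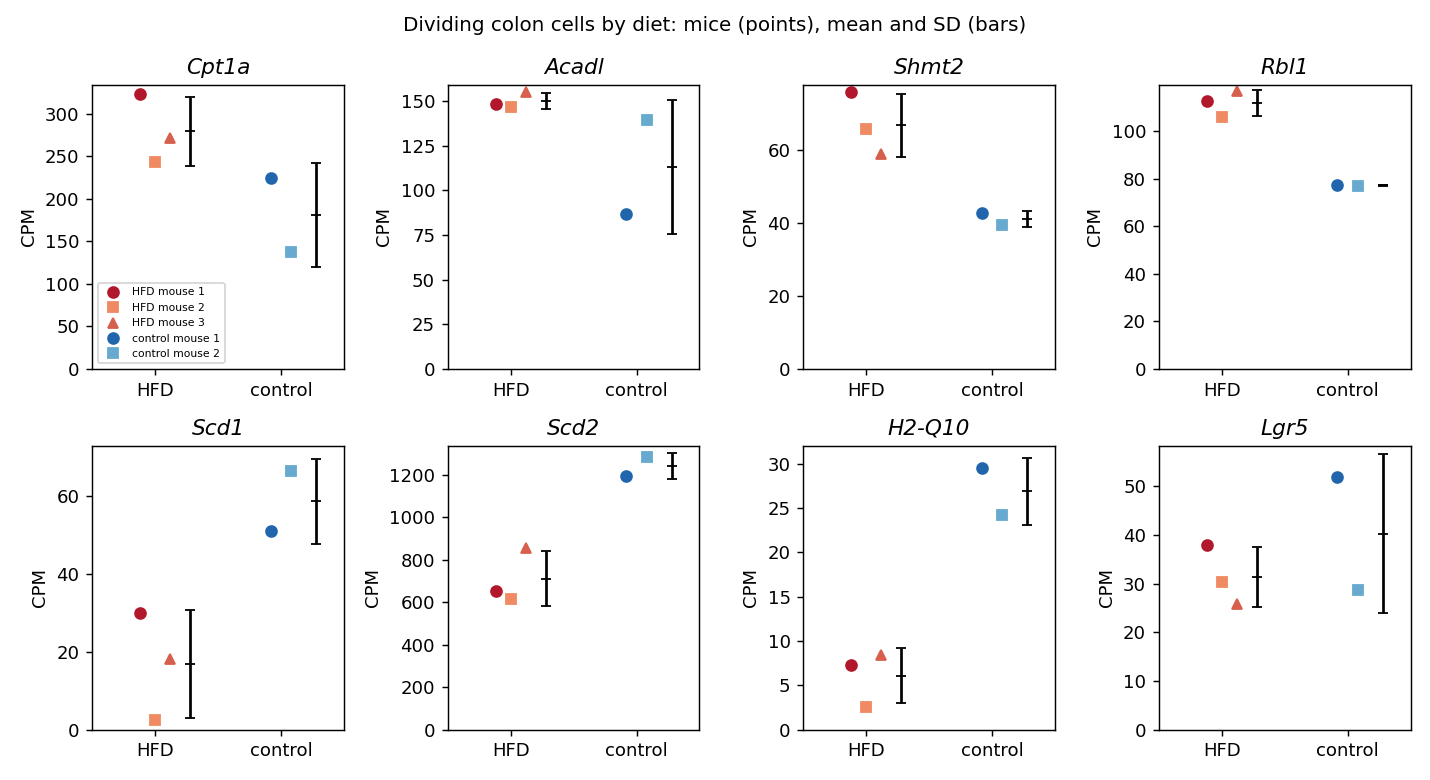
Levels (CPM) of 8 genes in the dividing colon cells of each mouse (points) on the high fat diet (left) and the control diet (right), with mean and SD (bars, n = 3 and n = 2). None of the 8 passed the test for diet.

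Stem cell genes did not separate the diets in dividing cells. Lgr5 had 38.0, 30.3 and 25.9 CPM on the high fat diet, against 51.9 and 28.7 CPM on the control diet, with overlapping groups (-0.29 ± 0.33, adjusted p = 1). Olfm4, a stem cell marker of the small intestine, was at 0 UMIs in the dividing colon cells of all 5 mice. Of 24 stem cell genes, 13 had a positive fold change and 1 did not overlap. Among the genes of smallest p was H2-Q10, an MHC class I gene of which near-identical relatives may take reads, at 7.34, 2.53 and 8.39 CPM on the high fat diet, against 29.5 and 24.2 CPM on the control diet (-1.84 ± 0.37, adjusted p = 1). All 8 mitochondrially encoded genes had a negative fold change (median -0.43), and 2 of the 8 did not overlap between the diets. Their median was -0.57 between the deeper mice (high fat diet mouse 3 minus control mouse 2) and -0.64 between the shallower ones (high fat diet mice 1 and 2 minus control mouse 1). The share of all mitochondrial UMIs in the median dividing cell overlapped, at 11.5%, 16.6% and 13.0% on the high fat diet and 12.6% and 12.3% on the control diet. Of 18 dissociation stress genes, 17 had a negative fold change, with summed levels of 2125, 882 and 6888 CPM on the high fat diet and 2278 and 9086 CPM on the control diet. Hspa1b, a heat shock protein gene, had 1.33, 2.53 and 24.1 CPM, against 4.07 and 257 CPM, so that control mouse 2 alone was high. The part of tissue handling in the other differences was not tested.

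A test of whether diet acted differently on dividing and other colon cells called 1 of 12455 genes (0.00803%), the immunoglobulin gene Ighg2c, and 171 had a p under 0.05 before adjustment (edgeR's quasi-likelihood test, difference of log2 fold changes -10.17 ± 0.40, Benjamini-Hochberg adjusted p = 0.000149). It had 2.67, 0 and 6.01 CPM in dividing cells of high fat diet mice and 899 and 0 CPM in those of control mice. In control mouse 1, 882 of its 883 UMIs (99.9%) in dividing cells came from 1 cell, and without that mouse no gene was called.

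Dividing cells of the colon were also compared with those of the small intestine of the same mice. The colon cells had higher levels of antigen presentation, cholesterol and goblet genes and lower levels of replication genes. The test has the mouse as a block, and small intestine values are the mean of the proximal and distal libraries of a mouse. edgeR's quasi-likelihood test called 36.4% of 11557 genes at a Benjamini-Hochberg adjusted p under 0.05, 19.6% higher and 16.8% lower in the colon. All 12 tested genes of MHC class I presentation were higher (median log2 fold change 1.35, against -0.01 over all genes). H2-K1 had 1151, 935 and 1095 CPM in dividing colon cells of high fat diet mice and 883 and 1038 CPM in those of control mice, a mean of 1021 ± 111, against 338 ± 21.6 CPM in dividing small intestine cells (SD, n = 5; 1.55 ± 0.08). Tap1, which loads peptides into the endoplasmic reticulum, averaged 127 ± 36.1 and 33.1 ± 4.63 CPM (1.83 ± 0.09). All 8 MHC class II genes were higher too (median 2.19), with H2-Aa at 379 ± 130 and 49.3 ± 16.5 CPM (3.00 ± 0.30). B and plasma cell genes (6 of 7) and T cell genes (5 of 10) were also called higher in the colon. However, 0 of the 7 and 2 of the 10 were higher in every mouse, against 20% of all genes. Their lists summed to 10.1 to 758 and 23.3 to 624 CPM in dividing colon cells, against 2.52 to 270 and 37.3 to 140 CPM in dividing cells of small intestine libraries, and no gene of these lists was at 0 in dividing colon cells. With cells of immune or stromal profile removed, H2-K1 differed by 1.54 and H2-Aa by 2.98, and the counts of 12 and 8 stayed the same.

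In lipid genes, 16 of 23 cholesterol genes were higher and none lower in dividing colon cells (median 0.60), with Mvd, mevalonate decarboxylase, at 56.2 ± 12.6 CPM in the colon and 22.8 ± 6.997 CPM in the small intestine (1.28 ± 0.11). Scd2 averaged 922 ± 306 CPM in the colon and 243 ± 184 CPM in the small intestine (2.69 ± 0.26). Of 39 fatty acid oxidation genes 21 were lower and 4 higher. Mttp (chromosome 3, 138089854 to 138144968), which loads lipid onto apolipoprotein B, had 2.67, 2.53 and 2.80 CPM in dividing colon cells of high fat diet mice and 3.05 and 2.65 CPM in those of control mice, against 252 ± 82.8 CPM in the small intestine (-6.33 ± 0.19). Pparg, a nuclear receptor for fatty acids, was higher, at 77.2 ± 27.3 CPM in the colon and 7.97 ± 2.15 CPM in the small intestine (3.36 ± 0.17). The sulfotransferase gene Sult1a1 averaged 374 ± 172 CPM in the colon and 1.66 ± 1.36 CPM in the small intestine (8.17 ± 0.15).

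Replication genes were lower in the colon among cells chosen by the same rule, with 26 of 47 lower and none higher (median -0.28). Prim1, the primase subunit, averaged 93.1 ± 13.2 CPM in dividing colon cells and 131 ± 9.77 CPM in dividing small intestine cells (-0.55 ± 0.08). Of 22 ribosome biogenesis genes 13 were lower (6 without high fat diet mouse 3, 8 without control mouse 2), and of 19 G1 regulators 8 were lower and 1 higher, with the cyclin gene Ccnd2 at 376 ± 68.7 and 703 ± 79.7 CPM (-0.94 ± 0.11). Of 41 other mitosis genes 7 were higher and none lower (median 0.12). Leaving out control mouse 1 left 13 replication genes lower and 1 mitosis gene higher, leaving out high fat diet mouse 1 or mouse 2 left 2 mitosis genes higher, and without both high fat diet mice 1 and 2 no mitosis gene was higher and 3 were lower. Stem cell genes were split, with 6 higher and 8 lower. Ephb3 averaged 108 ± 41.5 and 39.6 ± 8.48 CPM (1.34 ± 0.14), and Smoc2 158 ± 39.1 and 325 ± 13.4 CPM (-1.10 ± 0.12). Olfm4, at 0 in the colon, averaged 2117 ± 506 CPM in the small intestine. Of 17 goblet genes, 11 were higher and 3 lower, with Creb3l1, a factor of secretory cells, at 273 ± 160 and 44.2 ± 7.79 CPM (2.74 ± 0.17). Of 10 Paneth cell genes 7 were lower, and 6 of the 10 had no UMI in any dividing colon cell. These 6 passed the filter on low counts only through the small intestine, so nothing is read from the count of 7.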

How the data were processed

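Per the labels, single cells of 15 libraries (3 gut segments of 5 mice) were processed by Seq-Well with second strand synthesis. The authors deposited a table of UMI counts per gene and cell (17185 genes, 18919 cells) and a cell table with organ, mouse and stem call. The aligner is not given in the sources used here, and the submitters' processing notes name mm10. Control mouse 2 is numbered 3 in the deposited cell table and was matched by elimination.

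Counts were summed per mouse and population of at least 10 cells and compared in edgeR 4.0.16 (R 4.3.3; TMM, filterByExpr, quasi-likelihood F tests), adjusted over all genes by Benjamini-Hochberg, threshold 0.05. SE is the log2 fold change over the root of F. The mouse was a block, from the labels, except for diet, which was fitted over 15 sums of dividing cells, with 3 segments per mouse and a spread shared between them. Shares were compared by exact permutation (scipy 1.17.1). Thinning drew 2000 UMIs per cell. Doublets (Scrublet in scanpy 1.11.5) were kept. An immune or stromal profile needed 2 markers of such types with under 2 epithelial ones. DESeq2 1.42.0 and limma 3.58.1 (voom) were alternatives. Named genes were, per comparison, the 10 called genes of smallest p in each direction with 1 sign in every mouse, or 4 where under 5 were called, up to 4 of smallest p per list, the rule genes, and for diet Lgr5, Olfm4, Ascl2, Cpt1a, Acadl, Creb3l3 and Scd2. The members and lists were chosen with earlier results of these data known. The fitting scripts were tested on simulated counts. There the diet test recovered 16.5% of 97 genes changed by 1 log2 unit and 72% of 100 changed by 2, so smaller diet differences could be missed. False calls were 8 of 96 for diet, 12 of 106 for the difference of diet effects and 22 of 200 for dividing against other cells. They were 15 of 193 for colon against small intestine and 19 of 202 for stem-called cells. Each of these shares is above the 0.05 that the threshold sets. The simulated sums were drawn independently, so a likeness between the 3 segments of a mouse was not part of the diet simulation.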

Additional observations from a re-analysis of the deposited data

Results flagged for a closer look

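The diet difference of Ighg2c in dividing minus other colon cells stood out because the 2 populations differed by a test of the difference itself. The value was -10.17 on the log2 scale (edgeR's quasi-likelihood test, Benjamini-Hochberg adjusted p = 0.000149). Of 127 dividing cells of control mouse 1, 2 had a UMI of this gene, and 1 of them held 882 of the 883 UMIs. The other 4 mice had 0 to 6.01 CPM in dividing cells. The call was lost without control mouse 1, without the mouse as a block and in DESeq2.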

How the results depend on the processing

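The number of genes called for dividing against other colon cells (2777) was 1213 between stem-called cells of both kinds, 876 with cells thinned to 2000 UMIs, 838 with no replicate block by mouse, and 1357 (without control mouse 2) to 2862 with a mouse left out (1429 without high fat diet mouse 3). Without a filter on low counts the calls were 1339 higher and 1765 lower, in place of 1523 and 1254, and the median over all genes was -0.12 (log2). For diet in dividing cells, leaving out a mouse gave 0 to 2 calls (2 without high fat diet mouse 1, 1 without control mouse 2), and leaving out the colon libraries of high fat diet mice 1 and 2, chosen after seeing the data, gave 3. The replicate number as a block in colon sums gave 77 calls (31 higher, 46 lower), with Scd2 at -0.93 and Scd1 at -1.52 among them and Chgb reversed at -6.84. These numbers name different mice. High fat diet mouse 3 has no partner of its number, so the diet estimate of this fit rests on the mice of numbers 1 and 2. The fit leaves very few mice to estimate the spread. Deviations of mice of the same number correlated at 0.36 (number 1) and 0.13 (number 2). With 2 control mice, pairing with the other control mouse gives -0.36 and -0.13 by construction. Whether mice of the same number share more than a number was therefore not tested. The difference of diet effects (1 call) gave 3 without a filter, 2 with DESeq2, limma voom, doublets removed or another threshold of 3 or 7 rule genes, 4 when thinned, 0 with no replicate block, and 0 to 5 with a mouse left out. The number of calls for colon against small intestine (4201) was 1222 when thinned, 2956 with no replicate block and 2891 to 4149 with a mouse left out. For stem-called cells (1567), DESeq2 gave 676, at least 3 rule genes 2390, at least 7 712, thinning 159, no replicate block 248, and leaving out a mouse 749 (high fat diet mouse 3) to 1559 (811 without control mouse 2). The difference in the share of dividing cells by diet was -0.47, -0.086 and -0.16 points after thinning to 2000 UMIs with at least 5 or 3 rule genes and to 3000 UMIs, and -4.81 to 6.54 with a mouse left out. The stem call difference was 11.9 points with all UMIs, 1.17 at 3000 UMIs and -2.18 to 0.17 with a mouse left out. Single genes that reversed were Chga in the colon against the small intestine at 7 or more rule genes (0.059), Chgb in stem-called cells with DESeq2 (0.61), and Zbtb38 (-0.20) and Ephb3 (-0.15) between stem-called dividing and other cells. Thinning leaves fewer UMIs and fewer genes to test, and for the other changes the cause was not tested. Of the named genes, the other results kept direction and side of the threshold in 1607 of the values for dividing against other cells, 2079 for diet, 1814 for colon against small intestine and 1147 for stem-called cells, and lost the call in 226, 0, 131 and 179. In the same order, 2, 130, 21 and 5 values changed direction without a call in either setting, and 21, 14, 9 and 18 gained a call. For the difference of diet effects, 1397 values stayed the same, 86 changed direction without a call, 15 gained a call and 3 lost it.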
